A study of Arabidopsis thaliana with 4 samples.

Results

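WAK1 to WAK5 are 5 genes for wall-associated kinases that lie in a row on chromosome 1 of Arabidopsis thaliana. They were taken from the gene count table by their locus identifiers, 5 of the 32833 genes listed, and were picked because WAK1 was higher in the mutant. Their differences between the genotypes are therefore given as a description with no test. The 2 mutant libraries (replicates 1 and 3) came from seedlings labelled as carrying a GFP-tagged MAC3B with the substitutions Q77A and D81A. The 2 wild-type libraries (replicates 1 and 2) came from Col-0 seedlings. All 4 held polyA-selected RNA of whole untreated seedlings aged 7 days, grown on Murashige and Skoog medium with added sucrose. The labels do not state the promoter of the transgene or whether the line keeps its own MAC3A and MAC3B genes, and MAC3B counts do not separate the transgene from the endogenous gene. They also do not state that libraries of a genotype were planted separately, so p-values reflect only how far these 4 libraries lie apart. A control that carries MAC3B-GFP without the substitutions was not analysed here. Both mutant titles carry the same number ahead of the replicate number, and the titles do not say whether it names a transgenic line. An effect of a single line therefore cannot be told apart from that of the substitutions.

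WAK proteins are receptor-like kinases of the plasma membrane. The part outside the cell binds pectin and carries EGF-like repeats, and the part inside is a serine/threonine kinase. They are known to bind pectin in the intact wall, which bears on cell expansion, and pectin fragments (oligogalacturonides), which are released by wounding or pathogens and set off a defence response. WAK1 is known as a receptor for oligogalacturonides and as a gene induced by salicylic acid and pathogens, and WAK2 as a gene needed for cell expansion in seedlings. MAC3B is a homologue of the yeast splicing factor Prp19 and belongs to a complex known to act in splicing and in plant immunity.

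The 5 genes span 7423704 to 7448483 of chromosome 1 (TAIR10), which is 24.78 kb, and all lie on the plus strand. In order along the chromosome they are WAK4 (AT1G21210, 7423704 to 7427041), WAK5 (AT1G21230, 7429895 to 7432477), WAK3 (AT1G21240, 7434235 to 7436830), WAK1 (AT1G21250, 7439171 to 7442113) and WAK2 (AT1G21270, 7444749 to 7448483). WAK4 has 4 exons and each of the others has 3. The genes are similar enough that reads could be hard to place. Aligned coding bases of the 10 pairs were 79.1% (WAK2 with WAK4) to 85.8% (WAK1 with WAK3) identical. The longest run of exon bases that 2 members share exactly is 127 bases, in the last exons of WAK1 (chr1:7441612-7441738) and WAK3 (chr1:7436422-7436548), inside the coding sequence of both. It is shown because a read pair that lies wholly within it cannot be given to either gene. The sequence comes from the RefSeq copy of the genome (TAIR10.1, plus strand).

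WAK1 and WAK3: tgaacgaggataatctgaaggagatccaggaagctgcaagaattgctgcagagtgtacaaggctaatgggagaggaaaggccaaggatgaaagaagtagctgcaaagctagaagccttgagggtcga

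Of the 31-base words in the exons of WAK1, 13.3% also occurred in another member and none occurred elsewhere in the genome only. The share found anywhere else in the genome was 18.0% for WAK3, 8.84% for WAK2, 5.61% for WAK4 and 4.51% for WAK5. Most exon bases of every member are therefore distinct at this word length. The sources used here do not state the read length.

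The neighbours WAK1 and WAK2 also resemble each other upstream. The 250 bases before the annotated gene start had 76.0% of bases identical in an alignment of these 2 genes, against 47.6% to 55.2% for the other 9 pairs. Both are shown because this pair is the most alike here. The log2 fold changes were 2.03 for WAK1 and 0.15 for WAK2 (described with the counts). WAK1 was picked for its rise, and the part of these bases in the transcript levels was not tested. Capitals mark the longest run that both share, 30 bases. The windows are chr1:7438921-7439170 for WAK1 and chr1:7444499-7444748 for WAK2 (RefSeq, TAIR10.1, plus strand, 5′ to 3′).

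WAK1: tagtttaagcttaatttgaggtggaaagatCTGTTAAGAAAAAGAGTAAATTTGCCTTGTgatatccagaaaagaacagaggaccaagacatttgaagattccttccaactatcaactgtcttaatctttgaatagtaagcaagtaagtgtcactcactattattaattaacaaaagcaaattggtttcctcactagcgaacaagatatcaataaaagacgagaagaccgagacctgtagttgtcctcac

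WAK2: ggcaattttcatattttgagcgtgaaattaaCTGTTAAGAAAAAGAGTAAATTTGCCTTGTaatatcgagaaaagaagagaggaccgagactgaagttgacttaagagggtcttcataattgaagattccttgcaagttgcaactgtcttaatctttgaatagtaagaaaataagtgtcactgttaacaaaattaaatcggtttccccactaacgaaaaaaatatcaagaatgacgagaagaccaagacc

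The windows were searched on both strands for TTGACC and TTGACT, forms of the W box bound by WRKY factors, and for TGACG, bound by TGA factors. WAK1 and WAK5 held none of the 3. WAK2 held TTGACT at -154 to -149 and TGACG at -19 to -15, counted from the gene start. WAK3 held TGACG at -107 to -103, and WAK4 held TTGACT at -48 to -43. Among the 250-base windows of 32546 nuclear genes, 11.8% held TTGACC, 18.7% held TTGACT and 18.4% held TGACG.

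Library totals were 23936296 and 30105517 counted fragments in mutant replicates 1 and 3, and 23436163 and 24245300 in wild type replicates 1 and 2. As a check of the labels, MAC3B was at 1147 and 947 CPM (counts scaled to a common library total) in the mutant and at 156 and 162 CPM in wild type, so that the log2 fold change was 2.72 (standard error, SE, 0.0871), while its homologue MAC3A was at 0.01 (SE 0.0877). Of the organ markers, the 4 root genes summed to 5302 to 5705 CPM in mutant libraries and 5326 to 5381 CPM in wild type, nearly all of it from PYK10 (log2 fold change 0.04), and 0 of the 4 passed. The endodermis gene CASP1 was at 55.9 and 57.3 CPM in the mutant and 50.1 and 46.2 CPM in wild type (log2 fold change 0.23, SE 0.0918, edgeR, Benjamini-Hochberg adjusted p = 0.215). The 3 shoot genes summed to 26381 to 28571 CPM in mutant libraries and 32303 to 33486 CPM in wild type. Of these the light-harvesting gene LHCB1.3 was lower in the mutant (log2 fold change -0.34, edgeR, Benjamini-Hochberg adjusted p = 0.0103), while RBCS1A (-0.12) and GLK1 (0.08) did not pass. The 2 flower genes stayed at or under 0.987 CPM in sum in every library, and the 2 seed genes at or under 6.18 CPM. The part of LHCB1.3 and CASP1 in the results on the WAK genes was not tested. Over all genes, 617 of 20483 tested (3.01%) were past the threshold, which was an adjusted p under 0.05 (edgeR quasi-likelihood, Benjamini-Hochberg), with 345 higher and 272 lower in the mutant.

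WAK2 was the most abundant member and WAK1 came next. Per exon length, WAK2 was at 18.8 ± 4.07 TPM (counts per exon length, scaled to the same sum in each library) in the mutant and 16.4 ± 0.0841 TPM in wild type (mean ± SD, n = 2 each). WAK1 was at 4.33 ± 2.81 TPM in the mutant and 1.01 ± 0.0544 TPM in wild type. The other 3 were rare. WAK4 was at 0.517 ± 0.207 TPM in the mutant and 0.188 ± 0.136 TPM in wild type. WAK3 was at 0.358 ± 0.28 TPM in the mutant and 0.305 ± 0.23 TPM in wild type. WAK5 was at 0.315 ± 0.218 TPM in the mutant and 0.0143 ± 0.0202 TPM in wild type. The order WAK2, WAK1, then the rest held in all 4 libraries without overlap of the values. WAK4 and WAK3 overlapped, with WAK4 above WAK3 in 2 of 4 libraries, and so did WAK3 and WAK5, with WAK3 above WAK5 in 3 of 4. The level of WAK2 is an underestimate on this scale. Of its 3585 exon bases, 994 (27.7%) also belong to AT1G21280, a gene annotated as retrotransposon-like on the other strand, and the counting kept no fragment that overlaps exons of more than 1 gene. AT1G21280 had 0 counts in every library, which says nothing of its expression, since all its exon bases are shared with WAK2. Over the remaining 2591 bases WAK2 came to 30.03 and 22.1 TPM in the mutant and 22.7 and 22.6 TPM in wild type.

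**Figure D1:**
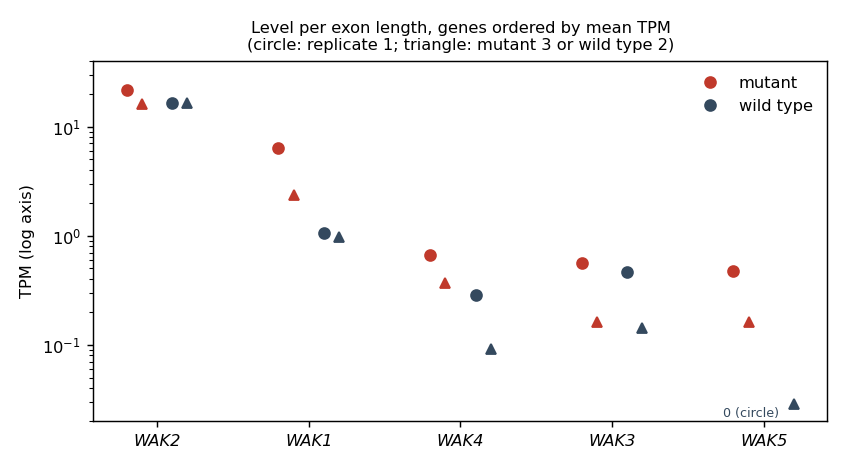
Level of the 5 WAK genes in TPM (log axis) in each library, with genes ordered by mean TPM, circles for replicate 1 and triangles for mutant replicate 3 or wild type replicate 2. WAK2 lies between 15.95 and 21.7 TPM, WAK1 between 0.971 and 6.32 TPM, and the other 3 at or below 0.664 TPM, with a 0 for WAK5 in wild type replicate 1.

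WAK1, the oligogalacturonide receptor, was higher in both mutant libraries. It had 247 and 117 counts in mutant replicates 1 and 3, against 41 and 39 counts in wild type replicates 1 and 2. As CPM these were 10.2 and 3.85 in the mutant, against 1.77 and 1.63 in wild type. Both mutant libraries lay above both wild-type libraries, and the lower mutant library was 2.17 times the higher wild-type one. The log2 fold change was 2.03 (SE 0.372, n = 2 per genotype), or 4.08-fold. The size rested on mutant replicate 1, which stood 2.64 times above mutant replicate 3. Without mutant replicate 1 the log2 fold change was 1.18 (SE 0.439), and without mutant replicate 3 it was 2.57 (SE 0.316). RNA of whole seedlings does not tell more RNA per cell from more cells that express the gene.

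WAK2, the next gene downstream, needed for cell expansion, had a smaller difference. It had 45.2 and 34.0 CPM in mutant replicates 1 and 3, against 36.0 and 35.4 CPM in wild type. Mutant replicate 1 was the highest and mutant replicate 3 the lowest of the 4, so the groups overlapped. The log2 fold change was 0.15 (SE 0.119, n = 2 per genotype), and -0.070 (SE 0.121) without mutant replicate 1. WAK1, picked for its rise, had a log2 fold change of 2.03 beside the 0.15 of WAK2. Without mutant replicate 1 these were 1.18 and -0.070. WAK2 gave most of the reads of the 5 genes. It took 82.2% of the members' counts in the mutant and 93.4% in wild type, while WAK1 took 14.0% in the mutant and 4.45% in wild type. Summed over the 5 genes, the level was 57.9 and 39.0 CPM in the mutant, against 39.0 and 37.4 CPM in wild type.

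WAK3, WAK4 and WAK5 are less studied kinases of the same structure, and few reads came from them. WAK3 had 19 and 7 counts in mutant replicates 1 and 3, against 16 and 5 counts in wild type replicates 1 and 2. The groups overlapped, and within each genotype replicate 1 was the higher library. Its log2 fold change was 0.14 (SE 0.844), -0.95 (SE 1.35) without mutant replicate 1 and 1.23 (SE 1.34) without wild type replicate 1. The difference was smaller than its SE.

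WAK4 had 28 and 20 counts in mutant replicates 1 and 3, against 12 and 4 counts in wild type replicates 1 and 2. These were 1.15 and 0.658 CPM in the mutant, against 0.519 and 0.167 CPM in wild type. Both mutant libraries were above both wild-type libraries. The log2 fold change was 1.38 (SE 0.753, n = 2 per genotype), 0.94 (SE 1.13) without mutant replicate 1, 0.78 (SE 0.973) without wild type replicate 2 and 2.40 (SE 1.17) without wild type replicate 1.

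WAK5 had 16 and 7 counts in mutant replicates 1 and 3, against 0 counts and 1 count in wild type replicates 1 and 2. It did not pass the filter on low counts. Both mutant libraries were above both wild-type libraries. The summed counts, 23 in the mutant and 1 in wild type, gave a ratio of 19.8 after scaling by the totals used for CPM. Its exact 95% interval ran from 3.21 to 816 and covers counting error only. The ratio was 10.8 without mutant replicate 1, 30.98 without mutant replicate 3 and 10.1 without wild type replicate 1, and it has no value without wild type replicate 2, whose 1 count is all that wild type had. In wild type replicate 1 a count of 0 allows up to 0.13 CPM (3 counts).

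Of the 5 members, 4 were tested and WAK1 was past the edgeR threshold, on the higher side, and 0 were past it on the lower side. Among all genes tested 3.01% were past it, 1.68% higher and 1.33% lower. Among the 4 tested members, both mutant libraries lay above both wild-type libraries for WAK1 and WAK4, as they did for 22.3% of all genes tested. The same order held for WAK5, which was not tested. Both mutant libraries lay below both wild-type libraries for 0 members and for 22.4% of all genes tested. Nothing is read from these counts, since the members were picked from this contrast. Mutant replicate 1 was the highest library for each of the 5 members. The share of all genes for which it was highest is not given here, so nothing is read from this either.

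**Figure D2:**
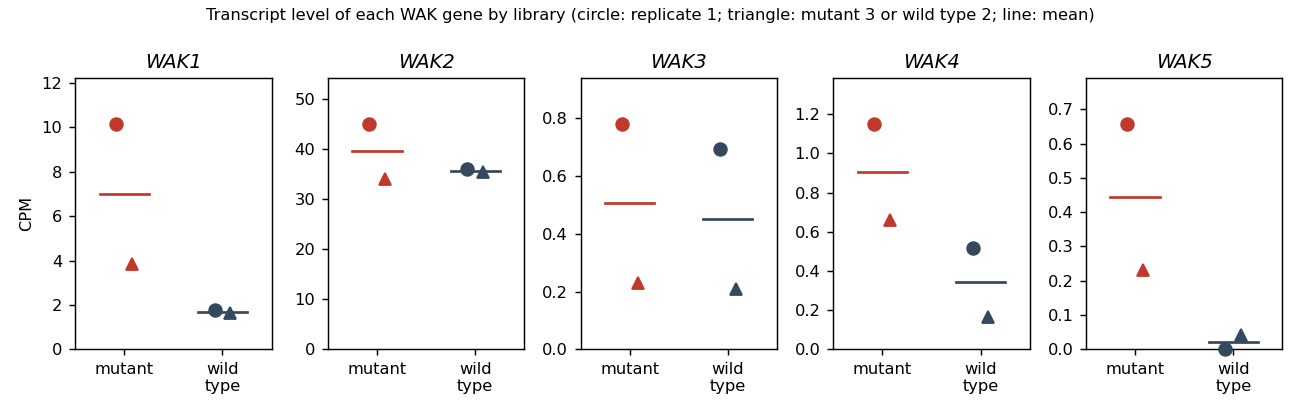
CPM of each WAK gene in the 2 mutant libraries (left) and the 2 wild-type libraries (right) of each panel, with the mean as a line and a separate axis from 0 for each gene. WAK1, WAK4 and WAK5 are higher in both mutant libraries, and WAK2 and WAK3 overlap between the genotypes. Mutant replicate 1 (red circle) is the highest library in every panel, and the share of all genes with that order is not given.

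**Figure D3:**
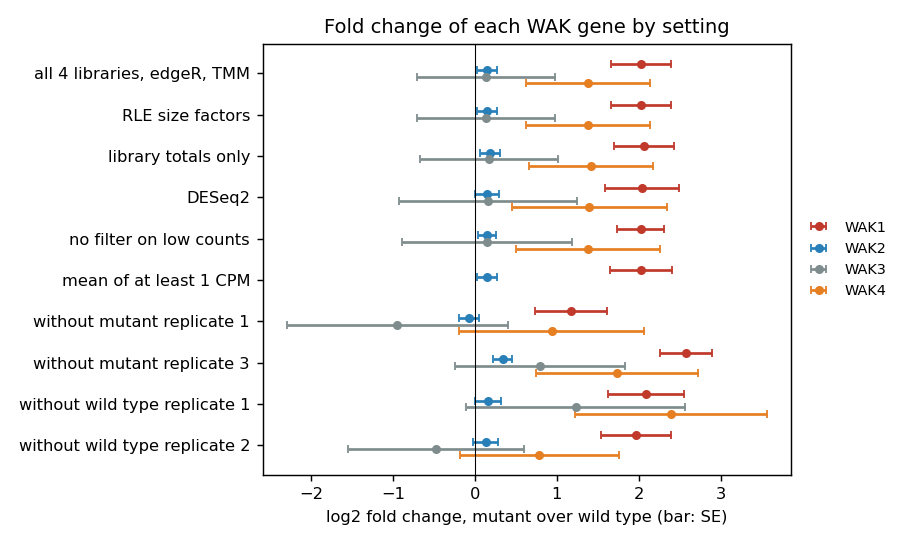
Log2 fold change of mutant over wild type with its SE for the 4 tested WAK genes under each setting. WAK1 stays between 1.18 and 2.57, WAK2 between -0.070 and 0.34, and WAK3 moves from -0.95 to 1.23 as single libraries are left out.

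In the authors' deposited table the log2 fold changes were 2.04 (SE 0.449) for WAK1, 0.15 (SE 0.152) for WAK2, 0.16 (SE 1.09) for WAK3, 1.40 (SE 0.946) for WAK4 and 4.38 (SE 2.01) for WAK5. Among the 5, WAK2 alone has an adjusted p in the authors' deposited table, which gives none for 10632 of its 23843 genes and none for any gene with a mean scaled count under 219.5. The mean scaled count of WAK1 in the authors' deposited table was 109.8.

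Intron measurements gave little on these genes. The deposited intron score lists 9 introns of WAK1, WAK3, WAK4 and WAK5 and none of WAK2. Of the 9 introns, 6 were at 0 in all 4 columns, among them both introns of WAK1 (7440356 to 7440440 and 7440615 to 7440702), where 47.9% of all 79373 introns listed were. The first intron of WAK4 (7424221 to 7424396) had a score of 0 and 2.35 in the mutant columns and 0 and 6.39 in the wild-type columns. The second intron of WAK3 (7435440 to 7435512) had 0 and 7.20 in the mutant columns and 4.42 and 0 in the wild-type columns, and its first (7435180 to 7435280) was above 0 only in 1 wild-type column, at 1.92. Each of these 3 introns had a 0 in each genotype. None of the 4690 events in the table of retained introns lay in a member.

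None of the tested genes around the cluster passed the threshold with all 4 libraries, where 3.01% of all genes tested did. Within 50 kb of the cluster there were 42 other genes, of which 26 were tested. Their log2 fold changes ran from -1.07 to 0.36 with a median of -0.04. In edgeR 0 passed (smallest Benjamini-Hochberg adjusted p = 0.0755), and 0 passed in DESeq2. In edgeR 5 had an unadjusted p under 0.05. The share of all genes tested under that cut is not given here, so nothing is read from this count. The gene that ends just before WAK4 is AT1G21200, annotated as a DNA-binding transcription factor and named with its value known. It had 12.9 and 12.8 CPM in the mutant and 11.8 and 12.5 CPM in wild type. Within its span lie the microRNA genes MIR781a and MIR781b, at 0 counts, of whose exon bases 92.6% (MIR781a) and 100% (MIR781b) are shared between them on opposite strands. The first gene beyond WAK2 is EXT3, which encodes the wall protein extensin 3 and shares 29.2% of its exon bases with AT1G21313. EXT3 was at 1156 and 1147 CPM in the mutant and 1294 and 1275 CPM in wild type, a log2 fold change of -0.16 (SE 0.0659, edgeR, Benjamini-Hochberg adjusted p = 0.257). EXT3 passed the threshold without mutant replicate 1, as did AT1G21400, and without mutant replicate 3, as did AT1G21065, IGMT1 and IGMT4. AT1G21065 also passed with no filter on low counts. Between WAK3 and WAK1, the kinase gene AT1G21245 had 0 counts.

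**Figure D4:**
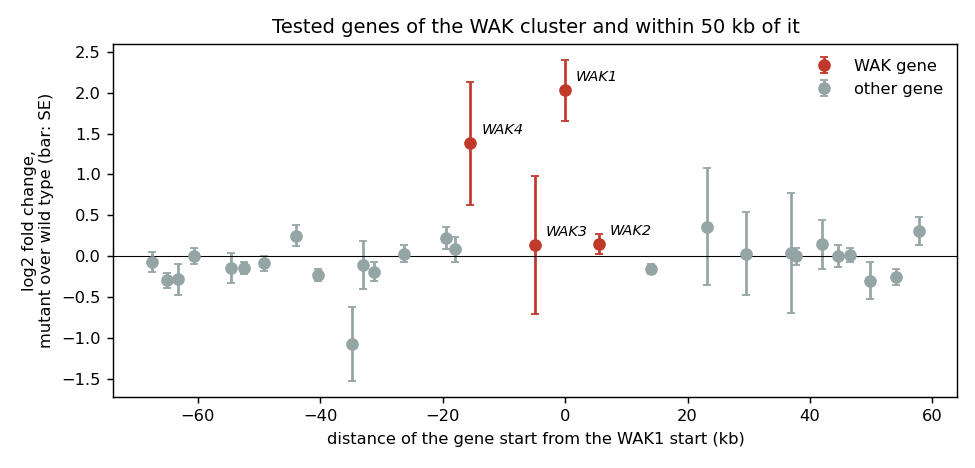
Log2 fold change (mutant over wild type) with its SE against the distance of each gene start from the WAK1 start, for the tested genes within 50 kb of the cluster. WAK1 at 2.03 and WAK4 at 1.38 (SE 0.753) lie above the 26 tested neighbours, which run from -1.07 to 0.36. WAK2 (0.15) and WAK3 (0.14) lie within that range. The cluster was picked because WAK1 was higher in the mutant, so its place above the neighbours is a description.

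The 5 genes whose levels over the 4 libraries were nearest to those of WAK1 are named in order of distance. They were chosen by this likeness, so their differences are a description. The nearest was AT5G42530, an uncharacterized gene, at a Euclidean distance of 0.134 in centred log2 CPM over 4 libraries. It had 44.3 and 19.8 CPM in mutant replicates 1 and 3, against 9.13 and 8.31 CPM in wild type. The next were ECS1 (distance 0.508), the uncharacterized AT2G25510 (0.521), ACD6 (0.606), which encodes an ankyrin-repeat membrane protein known to promote salicylic acid-dependent defence, and NRT1.8 (0.643), a nitrate transporter gene. ACD6 was at 11.8 and 5.43 CPM in the mutant and 2.16 and 3.63 CPM in wild type. ECS1 was at 93.6 and 56.2 CPM in the mutant and 25.7 and 29.3 CPM in wild type. In all 5 genes mutant replicate 1 was the highest and mutant replicate 3 the next, as in WAK1, to which they were matched on these libraries.

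Around the cluster, 6 lists of genes tied to WAK signalling held 105 genes, of which 92 were tested. Of these, 7 (7.61%) passed, against 3.01% of all genes tested (1.68% higher and 1.33% lower). The lists were chosen with earlier results of these data known, so nothing is read from the gap between these shares. At 3.01% each list would hold less than 1 call, so a list with 0 or 1 call is near the background. The WAK-like genes encode kinases of the wider family elsewhere in the genome. Of 15 tested, 1 was past the threshold on the higher side and 0 on the lower. The one past it was AT1G69730, annotated as a wall-associated kinase family gene on chromosome 1. AT1G69730 was at 15.6 and 12.5 CPM in the mutant and 6.71 and 7.35 CPM in wild type. Its log2 fold change was 1.00 (SE 0.181, edgeR, Benjamini-Hochberg adjusted p = 0.00297), and the call was lost without wild type replicate 1 (adjusted p = 0.067). The median log2 fold change of the list was 0.22, against 0.000394 over all genes tested. Of the 15, 10 had a log2 fold change above 0, as did 50.1% of all genes tested. The largest was that of WAKL5, named with its value known, at 1.46 (SE 0.414). WAKL5 was at 2.80 and 2.93 CPM in the mutant and 1.04 and 1.04 CPM in wild type. It did not pass (edgeR, Benjamini-Hochberg adjusted p = 0.0623). RFO1, which gives resistance to Fusarium, was named with its value known. It had 33.9 and 38.4 CPM in the mutant and 40.6 and 39.9 CPM in wild type.

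Of 7 tested ligands, partners and targets of the WAKs, 0 were past the threshold on the higher side and 1 on the lower. Among all genes tested 1.68% were higher and 1.33% lower. The median log2 fold change of the 7 was -0.03, with 3 of 7 above 0, as were 50.1% of all genes tested. The gene past the threshold was GRP3S, a short relative of GRP3, the glycine-rich protein that binds the outer part of WAK1. GRP3S was at 302 and 386 CPM in the mutant, against 456 and 428 CPM in wild type, a log2 fold change of -0.36 (SE 0.0903, edgeR, Benjamini-Hochberg adjusted p = 0.0323). The call was lost without wild type replicate 1 (adjusted p = 0.444) and without wild type replicate 2 (0.143). GRP3 itself, also named with its value known, was at 107 and 133 CPM in the mutant and 106 and 100.01 CPM in wild type, and did not pass (log2 fold change 0.22, SE 0.0928).

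Of 19 tested enzymes that modify or cut pectin, which WAKs bind, and their inhibitors, 0 were past the threshold on the higher side and 2 on the lower. Among all genes tested 1.68% were higher and 1.33% lower. This list too was chosen with earlier results known, so nothing is read from its counts. The median log2 fold change of the 19 was 0.04, with 10 of 19 above 0, as were 50.1% of all genes tested. The largest was that of AT3G59010, a rare pectin methylesterase gene named with its value known, at 1.80 (SE 0.558). AT3G59010 was at 2.34 and 1.55 CPM in the mutant and 0.433 and 0.668 CPM in wild type, and did not pass. The pectin methylesterase gene PME5 fell to 47.0 and 52.2 CPM in the mutant, against 76.4 and 83.6 CPM in wild type. Its log2 fold change was -0.69 (SE 0.0914, edgeR, Benjamini-Hochberg adjusted p = 0.000116), and the call held without any 1 library. PMR6, a pectate lyase-like gene known from powdery mildew resistance, was at 69.6 and 79.5 CPM in the mutant and 103 and 97.1 CPM in wild type. Its log2 fold change was -0.42 (SE 0.0869, edgeR, Benjamini-Hochberg adjusted p = 0.00903). The call of PMR6 was lost without wild type replicate 1 (adjusted p = 0.238) and without wild type replicate 2 (0.0621), and 32.9% of its exon bases belong to a second gene as well.

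Of 12 tested genes known to respond to oligogalacturonides, 3 were past the threshold on the higher side and 0 on the lower. Among all genes tested 1.68% were higher and 1.33% lower. The list was chosen with earlier results of these data known, so nothing is read from these counts. The median log2 fold change of the 12 was 0.15, with 10 of 12 above 0, as were 50.1% of all genes tested. The camalexin synthesis gene PAD3 was at 16.9 and 14.3 CPM in the mutant and 11.0 and 8.35 CPM in wild type, a log2 fold change of 0.68 (SE 0.173, edgeR, Benjamini-Hochberg adjusted p = 0.0344). RBOHD, the oxidase of the immune oxidative burst, was at 46.9 and 50.3 CPM in the mutant and 37.0 and 38.6 CPM in wild type (log2 fold change 0.36, SE 0.0969, adjusted p = 0.0441, edgeR with Benjamini-Hochberg). The berberine-bridge oxidase gene FOX1 was at 58.3 and 59.5 CPM in the mutant and 46.6 and 45.1 CPM in wild type (log2 fold change 0.36, SE 0.0904, adjusted p = 0.0323, edgeR with Benjamini-Hochberg). All 3 calls were lost without wild type replicate 1 and without wild type replicate 2 (adjusted p from 0.0604 to 0.433, edgeR). In DESeq2, PAD3 (adjusted p = 0.0677) and RBOHD (0.0816) missed the threshold. PAD3 was also lost without mutant replicate 1 (0.067) and RBOHD without mutant replicate 3 (0.064).

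Receptors of the wall and of microbial or damage signals had 0 of 15 past the threshold in edgeR and 0 in DESeq2. Their median log2 fold change was -0.02, with 5 of 15 above 0, as were 50.1% of all genes tested. In edgeR 1 receptor gene had an unadjusted p under 0.05. That gene was EFR, the receptor for bacterial elongation factor Tu, at 5.47 and 5.60 CPM in the mutant and 8.70 and 6.97 CPM in wild type (log2 fold change -0.50, SE 0.217, edgeR, Benjamini-Hochberg adjusted p = 0.277). Salicylic acid genes had 0 of 24 past the threshold in edgeR and 0 in DESeq2, with 2 at an unadjusted p under 0.05 in edgeR. For receptors and salicylic acid genes alike, nothing is read from the counts at an unadjusted p. The share of all genes tested under that cut is not given here. Their median log2 fold change was 0.16, with 20 of 24 above 0, as were 50.1% of all genes tested. The smallest p was that of NPR3, a salicylic acid receptor gene. NPR3 was at 28.0 and 28.3 CPM in the mutant and 21.3 and 24.96 CPM in wild type (log2 fold change 0.28, SE 0.119, edgeR, Benjamini-Hochberg adjusted p = 0.26). The second gene under 0.05 was WRKY70, named with its value known. WRKY70 was at 14.0 and 13.0 CPM in the mutant and 10.4 and 10.2 CPM in wild type (log2 fold change 0.39, SE 0.161). The salicylic acid marker PR1 had 0 counts in all 4 libraries, which allows up to 0.0987 to 0.13 CPM per library.

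**Figure D5:**
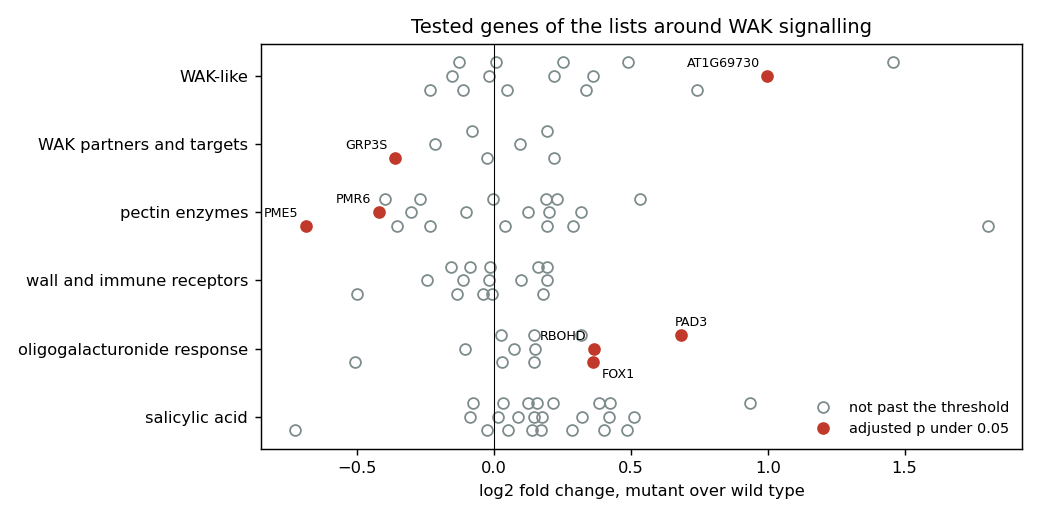
Log2 fold change (mutant over wild type) of each tested gene of the 6 lists, with genes past an edgeR adjusted p of 0.05 filled and named. AT1G69730, PAD3, RBOHD and FOX1 lie on the higher side, GRP3S, PME5 and PMR6 on the lower, and no receptor or salicylic acid gene is filled.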

How the data were processed

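The authors deposited raw counts per gene. Per the file headers, featureCounts 2.0.1 counted read pairs in exons (TAIR10, annotation release 49), with no option for strand, multi-mapping reads or fragments that overlap several genes. Per the submitters' processing notes the tools also included HISAT2 2.2.0, STAR 2.7.9a and DESeq2 1.30.1. Which aligner made the counts is not given in the sources used here. Column names of the wild-type libraries differ from the sample titles and were tied to them by the sample descriptions. Exon length, another deposited kind of value, gave TPM. The authors' deposited DESeq2 table holds mean scaled counts (a signal), log2 fold changes with errors, a Wald score and p-values. The deposited intron score is a signal whose making is not stated, in columns that name a genotype but no library, and 12 further columns of such values were not used. The deposited table of splicing events gives p-values and a difference of inclusion (a score) between unnamed groups.

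Counts of 32833 genes were tested in R 4.3.3 with edgeR 4.0.16 (filterByExpr, 20483 genes, TMM, glmQLFit and glmQLFTest, genotype as the only term, Benjamini-Hochberg over all genes at 0.05, common coefficient of variation 0.0971) after a test on simulated data. CPM uses TMM-scaled totals. Likeness used log2(CPM + 0.5) for genes with a mean of at least 5 CPM. Other steps used Python 3.11.15, pandas 2.3.3 and biopython 1.88. The genome is the RefSeq copy of TAIR10.1, where 97.4% of 79373 listed introns have GT or GC and AG ends and all 5 members have the same start and end. Members, lists and tests were chosen with earlier results of these data known. Named were the members, MAC3B and MAC3A, of each list up to 4 genes past the threshold (the largest changes) or else the gene with the smallest p, neighbours past it and the 2 next to the cluster on each side by gene start, and the 5 genes most like WAK1. Alternatives were DESeq2 1.42.0, library totals, RLE size factors, 2 other filters on low counts and each library left out. Library totals are in the report, and 3 counts (0.0987 to 0.13 CPM) serve as the floor. Floors and intervals cover counting error only.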

Additional observations from a re-analysis of the deposited data

How the results depend on the processing

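For the 4 tested members the log2 fold change moved by less than the spread between replicates under RLE size factors, library totals, DESeq2 and other filters on low counts (WAK3 and WAK4 could not be fitted at a mean of at least 1 CPM). Leaving out each library in turn gave 1.18 to 2.57 for WAK1, -0.070 to 0.34 for WAK2, -0.95 to 1.23 for WAK3 and 0.78 to 2.40 for WAK4, and a ratio of 10.1 to 30.98 for WAK5, which has no ratio without wild type replicate 2. Summed as 1 feature the 5 members gave a log2 ratio of 0.34, against a median of 0.76 over the 4 tested, since WAK2 holds most of the counts. Without shared exon bases, chosen after seeing the data, the mean TPM of WAK2 was 24.3 instead of 17.6. The count of genes past the threshold was 617, and 1090 with no filter on low counts, and 135 to 1848 with each library left out. With library totals 72.3% of the calls were higher, against 55.9%. List genes past the threshold numbered 7, and 1 to 15 with each library left out. Neighbours past it numbered 0, 1 with no filter (AT1G21065) and 0 to 4 with each library left out. The cause of these shifts was not tested. With 1 library left in a genotype, it is assumed to vary like the other genotype's pair. The score per gene level was not run, since its columns name no library. No paired analysis was possible because the genotypes share 1 replicate number at most (1 by the sample titles, or 3 by the descriptions, which call the wild-type libraries WT2 and WT3). WAK3, WAK4 and WAK5 had at most 28 counts in a library.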

Other observations

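The gap between the mutant libraries at WAK1 is described here beside those of genes of like abundance. WAK1 was picked because it was higher in the mutant, and these are the same libraries. Nothing is therefore read from its place among those genes. On the log2 scale mutant replicate 1 stood 1.38 above mutant replicate 3, while wild type replicate 1 stood 0.12 above wild type replicate 2. Among 4189 tested genes with a mean within 2-fold of that of WAK1, the median size of the gap was 0.25 between the mutant libraries and 0.24 between the wild-type libraries. Of them, 15 (0.358%) had a gap between the mutant libraries at least as large, WAK1 included. Mutant replicate 1 was above in 6 and mutant replicate 3 in 9. The gap uses log2(CPM + 0.1).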
